A study of Mus musculus with 23 samples.

Results

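The transcription factors, sensors and lipid regulators that control fat synthesis were followed in mouse fat tissue lying beside a breast tumor. They are Mlxipl (ChREBP), Srebf1 and Srebf2 (the SREBP factors), Insig1, Insig2 and Scap (which hold or carry the SREBP factors), Thrsp, Nr1h3 and Nr1h2 (LXR alpha and LXR beta) and Pnpla3. These 10 genes were taken by name out of 47311 genes in the files. All 10 passed the filter on low counts, which left 19882 genes for testing. Values were summed over the transcripts of each gene, and the single transcripts of Mlxipl and Srebf1 were then examined.

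The tissue was the mammary fat pad of female C57BL/6J mice that carried an orthotopic tumor of E0771-luciferase cells, a mouse breast cancer line marked with luciferase. Each mouse had 250000 cells injected at mammary gland 4. The 4 groups were obese mice given anti-PD-1 (8 libraries), obese mice given IgG2a (5), lean mice given anti-PD-1 (5) and lean mice given IgG2a (5). Obese mice ate a diet with 60% of its energy from fat from 8 to 26 weeks of age, and the labels list a diet with 10% for lean mice. The treatment text of every sample, lean ones included, describes only the first diet. Anti-PD-1 is an antibody against an inhibitory receptor of T cells, and IgG2a is its isotype control. Both antibodies were given at 200 µg every 3 days, beginning 3 days after the cells and ending at 21 days. The labels give no mutation or transgene of the mice. All groups share the tumor, and no fat pad from a mouse without a tumor is among the samples.

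ChREBP is switched on by sugar metabolites and the SREBP factors by insulin and low sterol, and together they raise the genes that turn glucose into fatty acids. The SREBP precursors sit in the endoplasmic reticulum, where Scap escorts them to the Golgi for cutting and the Insig proteins retain them when sterol is plentiful. The LXR receptors sense oxidized cholesterol, pair with RXR and raise Srebf1 and the cholesterol exporters. In fat tissue these factors set the rate of local fatty acid synthesis, and ChREBP is also made there as a shorter form from a promoter of its own.

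Depth ranged between 49438121 and 77369057 estimated counts per library. The labels do not say in so many words that each library came from its own mouse, so the p-values measure the spread between these samples. Fat cell markers were high in every group, with a summed level of 6040 to 53900 CPM (counts scaled to a common library size) in obese anti-PD-1, 12900 to 37200 in obese IgG2a, 19400 to 38700 in lean anti-PD-1 and 19400 to 54500 in lean IgG2a libraries. None of the 10 fat cell markers was at 0. B cell markers split the libraries into separate sets: a score above 4 occurred in 2 of 8 obese anti-PD-1, 2 of 5 obese IgG2a, 3 of 5 lean anti-PD-1 and 4 of 5 lean IgG2a libraries. Hepatocyte markers stood apart in obese IgG2a library 5, at a summed 9700.0 CPM against at most 261 CPM in any other library. Because these are bulk samples, fewer cells of a type and less RNA per cell cannot be told apart in any result that follows.

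The starts of Mlxipl and Srebf1 are shown first because the transcripts that changed differ in their first exons. On GRCm38, Mlxipl lies on chromosome 5 from 135089890 to 135138382, plus strand, and Srebf1 lies on chromosome 11 from 60199089 to 60222581, minus strand. Transcript Mlxipl-210 (a processed transcript with no coding frame annotated) begins with an exon at 135089890 to 135090060, 17.0 kilobases before the exon at 135106918 to 135107215 that opens the full-length coding transcript Mlxipl-201. Both first exons are spliced to the same second exon at 135113627 to 135113733. An upstream first exon joined to the shared second exon is the layout known for the short ChREBP form, ChREBP-beta, although the GENCODE annotation does not give Mlxipl-210 that name. The last 15 bases of each first exon (capitals) and the first 15 of the shared exon, from GENCODE M21 transcripts, read as follows.
Mlxipl-210: TCGCGTGGAGCTCAGtggcaagctggtctc
Mlxipl-201: GAGCCTGGCTTACAGtggcaagctggtctc

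In Srebf1, 3 of the annotated first exons are spliced to 1 shared exon whose upstream edge is at 60207257. Srebf1-204 starts farthest upstream, Srebf1-201 starts 1.98 kilobases after it, and Srebf1-207 starts another 10.1 kilobases farther on. The first exon of Srebf1-201 has the layout known for SREBP-1a and that of Srebf1-207 the layout known for SREBP-1c, the form that insulin and LXR raise in liver and fat. Srebf1-203 starts inside the shared exon, so almost all of its sequence is also in Srebf1-201. The 3 junctions are printed the same way, with the bases of the first exon in capitals.
Srebf1-204: AGCCTGCTGACACAGacatgctccagctca
Srebf1-201: TGAACGACATCGAAGacatgctccagctca
Srebf1-207: ATTGCACATTTGAAGacatgctccagctca

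**Figure D1:**
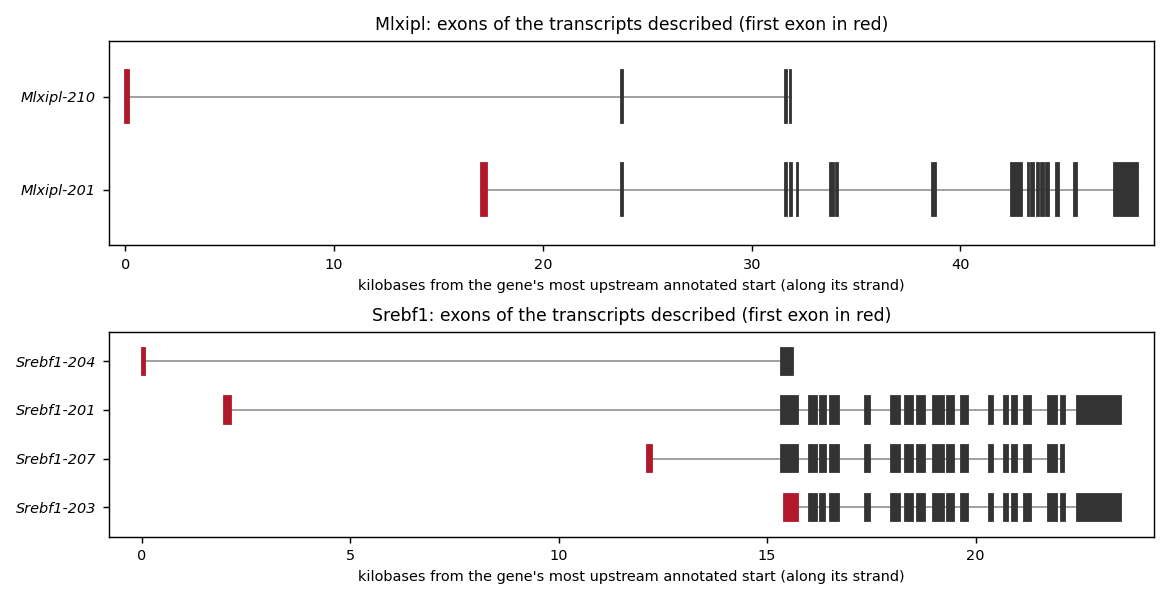
Exons of the Mlxipl and Srebf1 transcripts described, drawn as boxes along the distance in kilobases from the most upstream annotated start of each gene, with each first exon in red. The first exon of Mlxipl-210 lies 17.0 kilobases before that of Mlxipl-201, and Srebf1-203 starts within an exon that Srebf1-201 and Srebf1-207 share.

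Promoter windows of 300 bases (250 before a RefSeq start and 50 after it, GRCm38.p6) were found for all 10 genes, 17 windows in all. Of these, 4 are printed, for 3 of the genes that differed between obese and lean mice, with motif matches in capitals. The motifs searched on both strands were the E-box CACGTG, the sterol regulatory element TCACNCCAC, the CCAAT box CCAAT and AGGTCA. The last is only part of a nuclear receptor element. The upstream Mlxipl window, at chr5:135089640-135089939 on the plus strand, has its start at the first base of Mlxipl-210.
Mlxipl upstream start: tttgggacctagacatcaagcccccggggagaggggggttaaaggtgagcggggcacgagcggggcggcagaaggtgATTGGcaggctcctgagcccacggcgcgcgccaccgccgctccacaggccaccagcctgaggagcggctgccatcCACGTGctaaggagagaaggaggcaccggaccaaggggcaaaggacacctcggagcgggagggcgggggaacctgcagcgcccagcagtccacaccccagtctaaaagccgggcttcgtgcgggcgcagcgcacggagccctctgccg
The window of the other Mlxipl start, at chr5:135106641-135106940 on the plus strand, reads as follows.
Mlxipl downstream start: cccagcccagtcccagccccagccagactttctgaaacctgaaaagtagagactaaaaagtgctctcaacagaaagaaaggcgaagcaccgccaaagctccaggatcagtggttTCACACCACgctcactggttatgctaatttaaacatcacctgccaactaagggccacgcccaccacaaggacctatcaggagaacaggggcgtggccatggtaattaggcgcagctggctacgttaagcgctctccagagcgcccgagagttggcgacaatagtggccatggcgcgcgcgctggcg
The windows of Insig1 (chr5:28071162-28071461, plus strand) and Thrsp (chr7:97417501-97417800, minus strand) follow.
Insig1: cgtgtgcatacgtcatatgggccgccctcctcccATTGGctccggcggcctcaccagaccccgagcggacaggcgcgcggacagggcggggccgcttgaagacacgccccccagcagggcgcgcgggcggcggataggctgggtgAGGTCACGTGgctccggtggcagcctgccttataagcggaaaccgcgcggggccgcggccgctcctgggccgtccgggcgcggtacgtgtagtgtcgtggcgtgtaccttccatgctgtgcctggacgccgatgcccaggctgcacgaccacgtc
Thrsp: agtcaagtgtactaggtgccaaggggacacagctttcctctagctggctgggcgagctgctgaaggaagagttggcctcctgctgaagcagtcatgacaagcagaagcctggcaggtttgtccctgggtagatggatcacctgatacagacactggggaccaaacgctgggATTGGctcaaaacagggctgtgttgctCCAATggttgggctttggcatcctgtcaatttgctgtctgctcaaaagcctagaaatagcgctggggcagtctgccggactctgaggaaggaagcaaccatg

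The upstream Mlxipl window held an E-box at position -98 from the start and a CCAAT box at -173, and the downstream window held a sterol regulatory element at -136. In Insig1 an E-box at -101 overlapped an AGGTCA match at -105, and a CCAAT box lay at -216. Thrsp held CCAAT boxes at -79 and -52. An E-box also occurred in 2 Scap windows, and CCAAT boxes also occurred in windows of Srebf1, Srebf2, Insig2 and Pnpla3. Of all 32851 windows, 7.15% held the E-box, 1.24% the sterol element, 16.3% AGGTCA and 37.4% the CCAAT box. A match is only a run of letters in these windows.

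The first question was whether obesity altered these regulators in mice that received the isotype control. In obese IgG2a against lean IgG2a mice, 5 of the 10 genes fell and none rose: Thrsp, Pnpla3, Insig1, Mlxipl and Srebf1. The other 5 genes, Srebf2, Insig2, Scap, Nr1h3 and Nr1h2, did not pass the test. A gene was called at an adjusted p under 0.05 (edgeR's quasi-likelihood test, Benjamini-Hochberg over all genes), and 5.79% of all genes were called, 2.68% upward and 3.12% downward. The median log2 fold change of the 10 genes was -1.01, beside 0.12 over all genes. The 5 genes that fell were also the members whose obese and lean values did not overlap, which held for 4.42% of all genes in that direction.

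Thrsp, the Spot 14 protein that tracks active fat synthesis, showed the widest gap. Its level was 294, 178, 57.8, 73.6 and 49.4 CPM in the obese IgG2a libraries, against 4952, 4754, 3625, 2965 and 6156.5 CPM in the lean IgG2a libraries. Every lean library lay far above every obese one. The log2 fold change was -5.10 ± 0.60 (SE, n = 5 each), with edgeR's adjusted p of 1.98e-05. The call held in each of the 24 alternative fits of this comparison.

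Pnpla3, a lipid droplet protein and a known target of both SREBP-1c and ChREBP, had 62.0, 119.7, 20.1, 120.3 and 22.6 CPM in obese IgG2a libraries. It had 475, 556, 675, 327 and 939.8 CPM in lean IgG2a libraries. No value of one group reached the other. On the log2 scale Pnpla3 fell by 3.11 ± 0.59 (edgeR adjusted p = 0.00287).

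Insig1, the sterol-regulated anchor of the SREBP and Scap complex and itself an SREBP target, had 47.2, 103, 39.3, 142 and 119 CPM in obese IgG2a libraries. In lean IgG2a libraries it had 726, 791, 774, 439 and 745 CPM. The lean values lay close together except in library 4, which was lower but still above every obese value. Insig1 fell by 2.95 ± 0.60 on the log2 scale (edgeR adjusted p = 0.00548). The edgeR adjusted p was 0.105 with a mammary epithelium score as covariate. The call was also lost in the libraries with a B cell score of at most 4, where only 1 lean IgG2a library enters.

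Mlxipl had 16.9, 41.0, 10.1, 85.8 and 38.8 CPM in obese IgG2a libraries and 98.8, 179, 229, 112 and 224 CPM in lean IgG2a libraries. The highest obese value came close to the lowest lean one without reaching it. Mlxipl fell by 2.13 ± 0.57 on the log2 scale (edgeR adjusted p = 0.0292). This call was lost when obese library 2 or 5, or lean library 2, 3 or 5, was left out, with adjusted p between 0.0539 and 0.0734 and the same direction. Of 14 other settings 6 lost it too: log2(TPM + 1) (adjusted p = 0.0985), log2(TPM + 0.1) (0.0996), transcript length offsets (0.0536), only these groups (0.0505), the epithelium score as covariate (0.182) and only libraries with a B cell score of at most 4. That last set holds only 1 lean IgG2a library, so no p-value is given for it.

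Srebf1 showed the narrowest spread among the obese libraries, at 166, 197, 182, 188 and 173 CPM in obese IgG2a, against 514, 743, 595, 464 and 885 CPM in lean IgG2a mice. The groups were well apart. Its log2 fold change was -1.82 ± 0.25 (edgeR adjusted p = 0.000114), and the call held in all 24 alternatives.

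The genes that sense or carry sterol signals apart from Insig1 gave no call. Srebf2, the factor of cholesterol synthesis, had 94.7, 187, 134, 88.2 and 336 CPM in obese IgG2a and 89.0, 122, 118, 153 and 72.4 CPM in lean IgG2a libraries. The highest value was in the library with the hepatocyte markers, and the other values of the groups overlapped. The log2 fold change was 0.60 ± 0.31 (edgeR adjusted p = 0.299), and it was 0.22 (adjusted p = 0.83) without that library. Insig2 (-0.19 ± 0.23, adjusted p = 0.75) and Scap (0.24 ± 0.16, adjusted p = 0.476) overlapped between the groups. The receptors Nr1h3 (-0.17 ± 0.27, adjusted p = 0.842) and Nr1h2 (0.12 ± 0.14, adjusted p = 0.744) overlapped as well.

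**Figure D2:**
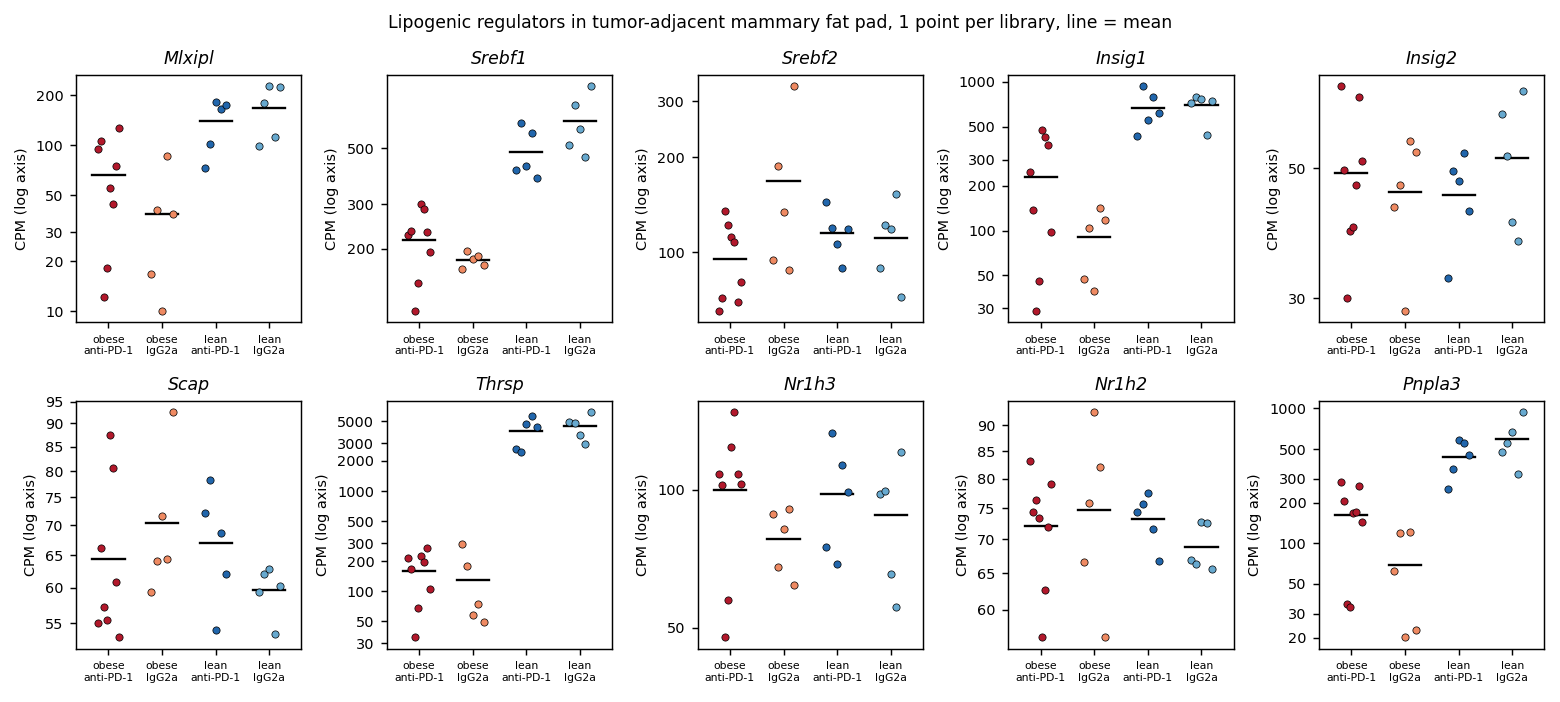
Level of each gene in CPM on a log axis, 1 point per library, with a line at the mean of each group (8 obese anti-PD-1, 5 obese IgG2a, 5 lean anti-PD-1 and 5 lean IgG2a libraries). Thrsp lies between 34.6 and 294 CPM in all obese libraries and between 2439 and 6156.5 CPM in all lean ones, while the points of Insig2, Scap, Nr1h3 and Nr1h2 overlap across the groups.

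The same question was asked in mice given anti-PD-1. Here 2 of the 10 genes fell, Thrsp and Srebf1, and none rose. Over all genes 10.1% were called, 5.2% upward and 4.85% downward (1034 and 965 genes), against 3155 upward and 421 downward on log2(TPM + 1). The median log2 fold change of the 10 genes was -0.67, beside 0.08 over all genes. Thrsp and Srebf1 were also the members whose groups did not overlap, which held downward for 3.11% of all genes.

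Thrsp had a lowest value of 34.6, a median of 182 and a highest value of 268 CPM in the 8 obese anti-PD-1 libraries. In lean anti-PD-1 libraries it had 2642, 2439, 4708, 5639.6 and 4392 CPM. Thrsp fell by 4.63 ± 0.48 on the log2 scale (edgeR adjusted p = 2.4e-06), and the call held in all 27 alternatives. Srebf1 had a lowest value of 113, a median of 231 and a highest value of 299.8 CPM in obese anti-PD-1, against 409.8, 630.3, 424, 578 and 383 CPM in lean anti-PD-1 libraries. Its highest obese value was below its lowest lean value. Srebf1 fell by 1.16 ± 0.22 on the log2 scale (edgeR adjusted p = 0.00155). The Srebf1 call was lost on log2(TPM + 1), with -0.40 and an adjusted p of 0.349, and with the epithelium score as covariate, with -0.72 and 0.186.

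Insig1 lay near the threshold. Its lowest, median and highest values were 28.9, 193 and 478 CPM in obese anti-PD-1 libraries, and the lean anti-PD-1 libraries had 433, 942, 558, 797 and 616 CPM. Only the top obese value entered the lean range. The log2 fold change was -1.54 ± 0.50 (n = 8 and 5; edgeR adjusted p = 0.0508), and the fit without obese anti-PD-1 library 5, the highest of its group, gave 0.0317. Pnpla3 had 33.9, 169.9 and 283 CPM as lowest, median and highest values in obese anti-PD-1, against 254, 356, 581, 551 and 449 CPM in lean anti-PD-1 libraries. The log2 fold change of -1.42 ± 0.48 did not pass (edgeR adjusted p = 0.0609). Mlxipl had 12.2, 65.2 and 128 CPM in obese anti-PD-1, against 73.0, 102, 182, 165 and 175 CPM in lean anti-PD-1 libraries. The ranges overlapped, and the log2 fold change was -1.06 ± 0.48 (edgeR adjusted p = 0.173).

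For the remaining genes the obese and lean anti-PD-1 ranges overlapped. Srebf2 gave a log2 fold change of -0.27 ± 0.28, Insig2 of 0.12 ± 0.21 and Scap of -0.06 ± 0.15. Nr1h3 gave 0.03 ± 0.24 and Nr1h2 gave -0.02 ± 0.12. Nr1h2 had the least spread of the 10 genes, with all 23 libraries between 56.5 and 92.6 CPM. On log2(TPM + 1), where the median of all genes moved to 0.27, Nr1h2 rose by 0.59 with an adjusted p of 0.0365.

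**Figure D3:**
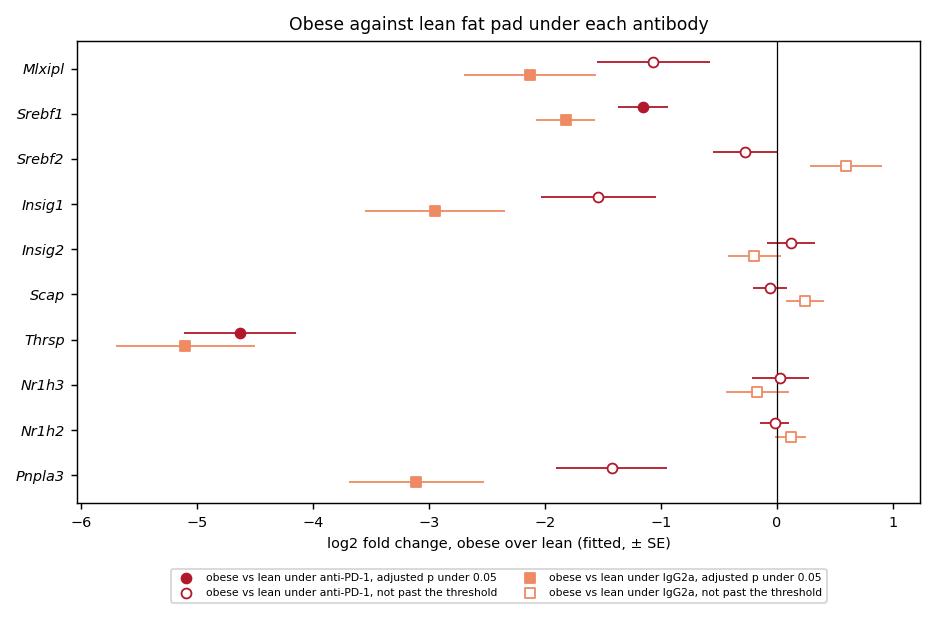
Fitted log2 fold change of obese over lean mice for each gene, under anti-PD-1 (circles) and under IgG2a (squares), with bars of ± 1 SE and filled symbols where the adjusted p was under 0.05. Filled symbols number 2 under anti-PD-1 and 5 under IgG2a, and Thrsp lies lowest in both, at -4.63 and -5.10.

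Mlxipl, Insig1 and Insig2 were lower in the obese libraries with many B cell markers, under either antibody. In the 2 obese anti-PD-1 libraries with a B cell score above 4, Mlxipl had 12.2 to 18.3 CPM, against 44.2 to 128 CPM in the other 6. Insig1 had 28.9 to 45.7 against 98.5 to 478 CPM in the same sets, and Pnpla3 had 33.9 to 35.5 against 145 to 283 CPM. Srebf1 (113 to 147 against 194 to 299.8 CPM) and Thrsp (34.6 to 68.0 against 104 to 268 CPM) were lower too. So were Nr1h3 (47.7 to 57.6 against 102 to 148 CPM) and Insig2 (30.1 to 39.1 against 39.6 to 69.1 CPM). Srebf2 was higher, at 122 to 135 against 65.2 to 112 CPM, and Scap and Nr1h2 overlapped. In the obese IgG2a libraries above and at or below that score, Mlxipl had 10.1 to 16.9 against 38.8 to 85.8 CPM and Insig1 had 39.3 to 47.2 against 103 to 142 CPM. Insig2 had 28.5 to 42.9 against 46.8 to 55.7 CPM there. Pnpla3 overlapped, at 20.1 to 62.0 against 22.6 to 120.3 CPM, and so did Thrsp, at 57.8 to 294 against 49.4 to 178 CPM. Srebf1, Srebf2, Scap, Nr1h3 and Nr1h2 overlapped in these obese IgG2a libraries as well. The summed fat cell markers of the obese anti-PD-1 sets were 6040 to 18300 against 41200 to 53900 CPM. Those of the obese IgG2a sets overlapped, at 14000 to 19900 against 12900 to 37200 CPM. Within libraries with a B cell score above 4, the log2 fold change of obese over lean mice under anti-PD-1 was -3.19 for Mlxipl, -3.80 for Insig1 and -3.58 for Pnpla3, all 3 past the threshold, from 2 obese and 3 lean libraries. Within libraries at or below 4 it was -0.75 for Mlxipl (edgeR adjusted p = 0.221), -1.65 for Insig1 (0.0296) and -1.22 for Pnpla3 (0.0948). These came from 6 obese and 2 lean libraries.

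With the fat cell score as covariate, 5 members fell under anti-PD-1 and the same 5 genes as in the first comparison were called under IgG2a. How many of all genes that fit called is not given here, so these counts are not read as a result about the members. Brown or beige fat cell markers differed with diet as well, at a summed 12.2 to 47.2 CPM in obese anti-PD-1 and 7.91 to 38.7 in obese IgG2a libraries, against 389 to 803 in lean anti-PD-1 and 213 to 1770 in lean IgG2a libraries. Their part in the result was not tested. Mammary epithelium markers were at 303 to 1780 CPM in obese anti-PD-1 and 527 to 997 CPM in obese IgG2a, against 1290 to 4690 in lean anti-PD-1 and 1330 to 2370 in lean IgG2a libraries. With that score as covariate, 3 members remained called under IgG2a (Thrsp, Srebf1 and Pnpla3) and Thrsp alone under anti-PD-1. Under anti-PD-1 that fit also called the fewest of all genes among the settings run, where the main fit called 10.1%. The fewer calls there were thus not particular to the members.

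The other question was whether anti-PD-1 altered the regulators at a given weight. In obese mice none of the 10 genes was called by edgeR for anti-PD-1 against IgG2a, where 0.538% of all genes were, 0.00503% upward and 0.533% downward. Of the members, 3 had an unadjusted p under 0.05: Srebf2 at -0.82 ± 0.27, Insig1 at 1.35 ± 0.53 and Pnpla3 at 1.24 ± 0.51, with adjusted p of 0.182, 0.267 and 0.284. DESeq2 called 0 members, and voom with library quality weights called these 3. Of all 19882 genes, the DESeq2 test called 399 and voom 2694, many more than edgeR. Srebf2 had a lowest, median and highest value of 65.2, 94.2 and 135 CPM in obese anti-PD-1 libraries, so it overlapped the obese IgG2a values given above. Without obese IgG2a library 5 the Srebf2 difference was -0.41 with an adjusted p of 0.558.

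In lean mice 0 members were called by edgeR, DESeq2 or voom for anti-PD-1 against IgG2a. In edgeR 0 members had an unadjusted p under 0.05, and 0% of all genes were called. The largest difference among the members was that of Pnpla3, at -0.44 ± 0.54 on the log2 scale. The interaction asks whether the obesity effect differs between the antibodies. It gave 0 calls among the members with edgeR, 0 with DESeq2 and 1 with voom, Srebf2. Of all 19882 genes, edgeR called 0, the DESeq2 test 50 and voom 629. Of the members, 2 had an unadjusted p under 0.05, Pnpla3 at 1.68 ± 0.74 and Srebf2 at -0.87 ± 0.41. Without obese IgG2a library 5 the Srebf2 interaction was -0.47 (edgeR adjusted p = 0.904). So the larger number of calls under IgG2a than under anti-PD-1 is not shown to be a difference between the antibodies.

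Levels were compared between genes in TPM (levels scaled for both transcript length and depth). In lean mice Thrsp stood far above the rest, at 3443 ± 1023 TPM under anti-PD-1 and 3850 ± 917 TPM under IgG2a (SD, n = 5 each). It did not overlap the next gene, Insig1, at 250.3 ± 78.9 and 254 ± 55.5 TPM. In obese mice Thrsp was still first by mean, at 202 ± 106 TPM under anti-PD-1 (n = 8) and 135 ± 89.1 TPM under IgG2a (n = 5), but its range overlapped that of Srebf1, at 145 ± 61.4 and 100.2 ± 33.7 TPM. Every neighbour in the order of the obese groups overlapped the next. In lean anti-PD-1 mice Srebf1 (177 ± 32.9 TPM) also lay clear above Pnpla3 (90.2 ± 28.5 TPM), and all later neighbours overlapped. The lowest mean belonged to Srebf2 in obese anti-PD-1 (25.9 ± 7.49 TPM) and lean anti-PD-1 mice (22.4 ± 5.37), to Pnpla3 in obese IgG2a (19.1 ± 15.8) and to Scap in lean IgG2a mice (20.3 ± 2.96).

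Single transcripts of Mlxipl and Srebf1 were tested with the same model over 52636 transcripts. Of the 22 listed, 20 passed the filter. Under IgG2a Mlxipl-201, Srebf1-203 and Srebf1-201 fell in obese against lean mice. Of all transcripts 0.897% were called there, 0.15% upward and 0.747% downward. Under anti-PD-1 Srebf1-203 fell, where 1.76% were called, 0.722% upward and 1.03% downward. Mlxipl-210 was called as lower in both comparisons, but it was at 0 in every obese library and is left out of this comparison with the shares. In the other 3 comparisons edgeR called 0 of the 20 and 0% of all transcripts. The unadjusted p was under 0.05 for 1 transcript in obese mice, 0 in lean mice and 1 in the interaction.

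Mlxipl-210, with the upstream first exon printed above, was listed at 0 in all 8 obese anti-PD-1 and all 5 obese IgG2a libraries. In lean anti-PD-1 libraries it had 11.01, 10.3, 12.7, 0 and 4.27 TPM, and in lean IgG2a libraries 3.31, 11.2, 13.8, 3.31 and 15.2 TPM. It was thus present in 4 of 5 and 5 of 5 lean libraries. Against a floor of 3 counts per library, its mean was at least 20.6-fold lower in obese than in lean mice under anti-PD-1 and at least 27.3-fold lower under IgG2a. The adjusted p from edgeR was 0.00711 under anti-PD-1 and 0.031 under IgG2a. With no counts in any obese library, the transcript passed the filter on low counts only through the lean libraries, where it is high, so these calls are no support of their own. Under IgG2a the call held without lean library 4 (0.0448), and with any 1 of the other 9 libraries left out the adjusted p lay between 0.0541 and 0.0809. A positive value in lean mice rested on 36 to 190 estimated counts, so the level is low.

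Mlxipl-201, the full-length coding transcript, had 1.83, 8.22, 1.58, 11.2 and 7.98 TPM in obese IgG2a and 18.2, 26.3, 31.7, 20.7 and 35.5 TPM in lean IgG2a libraries. The groups did not overlap. Its log2 fold change in counts was -2.66 ± 0.53 (edgeR adjusted p = 0.012). Under anti-PD-1 its lowest, median and highest values were 1.78, 11.5 and 21.3 TPM in obese mice, against 15.1, 17.3, 32.9, 22.8 and 24.5 TPM in lean mice. That difference of -1.64 ± 0.44 did not pass (edgeR adjusted p = 0.0564), and it was called without obese library 8 (0.0299).

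Srebf1-203 had 29.9, 15.6, 17.9, 20.6 and 10.5 TPM in obese IgG2a and 67.6, 79.6, 61.5, 66.9 and 85.2 TPM in lean IgG2a libraries. It was clear of overlap under anti-PD-1 too, at 8.56, 16.03 and 22.5 TPM as lowest, median and highest values in obese mice, against 44.3, 53.3, 60.0, 58.2 and 45.8 TPM in lean mice. Its log2 fold changes were -2.25 ± 0.33 (adjusted p = 0.000574) under IgG2a and -2.18 ± 0.28 (adjusted p = 9.53e-05) under anti-PD-1, both from edgeR. Srebf1-201, the start known for SREBP-1a, had 5.27, 30.7, 18.8, 29.1 and 34.4 TPM in obese IgG2a, against 28.7, 64.8, 69.1, 37.1 and 91.5 TPM in lean IgG2a libraries. Its log2 fold change was -1.79 ± 0.36 (edgeR adjusted p = 0.0131). The adjusted p was 0.0566 without lean library 5, and under anti-PD-1 the change of -0.90 ± 0.31 did not pass (0.139).

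Srebf1-207, the start known for SREBP-1c, did not pass in either comparison. It had 0.09, 15.1, 0.81, 17.1 and 14.6 TPM in obese IgG2a and 4.22, 14.1, 14.4, 5.28 and 16.5 TPM in lean IgG2a libraries. Its log2 fold change was -0.82 ± 0.97 under IgG2a and 0.38 ± 0.87 under anti-PD-1. The value under anti-PD-1 lay between 0.05 (without obese library 6) and 1.31 (without lean library 2) with 1 library left out. Its standard error was larger than that of Srebf1-201, and the estimates divide the reads of shared exons among these transcripts. Srebf1-204, the shortest of the 4, was listed at 0 in all 5 lean anti-PD-1 libraries and was at most 1.55 TPM in lean IgG2a libraries. It was above 0 in 5 of 8 obese anti-PD-1 and 2 of 5 obese IgG2a libraries, up to 66.6 and 46.7 TPM. It did not pass under anti-PD-1 (edgeR adjusted p = 0.114) or under IgG2a (0.71).

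**Figure D4:**
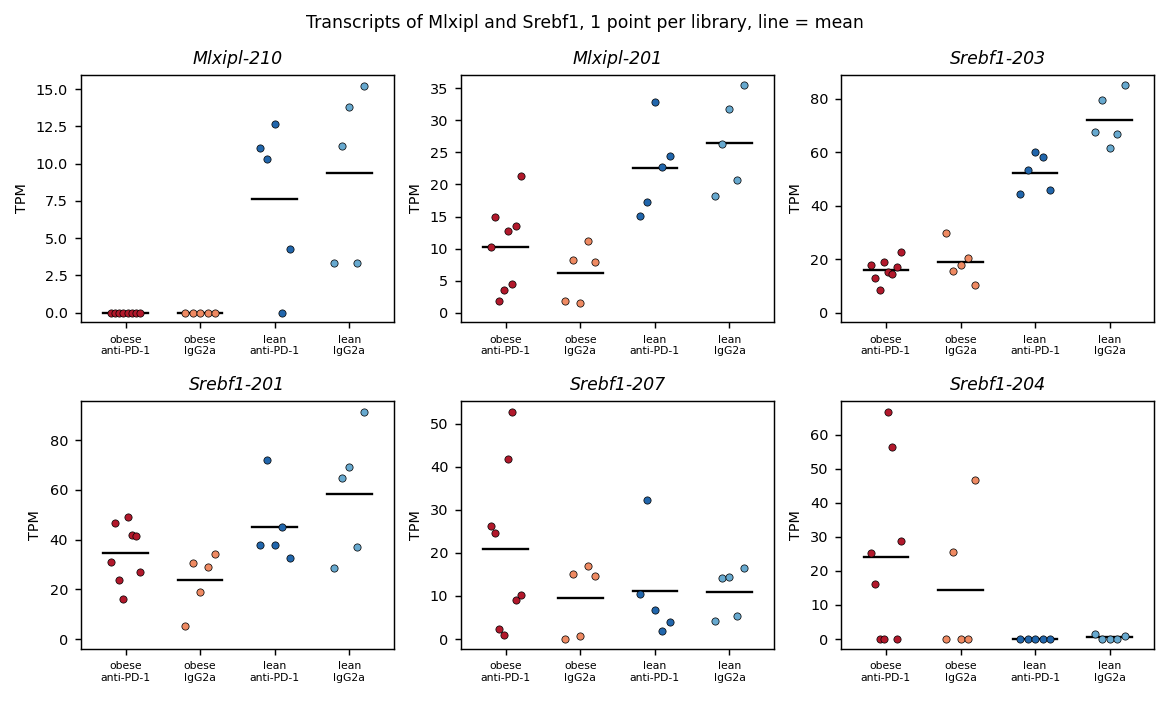
TPM of 6 transcripts of Mlxipl and Srebf1, 1 point per library, with a line at the mean of each group. Mlxipl-210 is at 0 in all 13 obese libraries and reaches 15.2 TPM in lean ones, while Srebf1-204 is at or near 0 in lean libraries and reaches 66.6 TPM in obese ones.

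The share of each transcript in the TPM of its gene was also compared, for transcripts with a mean share of at least 5% in some group. None of 56 exact two-sided permutation tests passed after Benjamini-Hochberg adjustment, and 5 had an unadjusted p under 0.05. The smallest p the design allows is 0.00155 for 8 against 5 libraries and 0.00794 for 5 against 5. Over 56 tests even 0.00155 adjusts to 0.087 when it stands alone. A single share therefore could not pass however far apart its groups were, and these tests cannot decide whether shares differ. Mlxipl-210 made up 0% in obese and 11.5 ± 2.98% in lean mice under IgG2a (SD, n = 5 each; exact permutation p = 0.00794, adjusted p = 0.148). The smallest p was that of Mlxipl-202 under anti-PD-1, at 3.08 ± 2.88% in obese and 14.7 ± 4.30% in lean mice (exact permutation p = 0.00155, adjusted p = 0.087). Mlxipl-208 had the higher share in obese mice, at 30.8 ± 10.7% against 15.9 ± 5.15% in lean mice under anti-PD-1 (exact permutation p = 0.0233, adjusted p = 0.261). Srebf1-203 made up 12.97 ± 7.21% in obese and 30.2 ± 6.67% in lean mice under anti-PD-1 (exact permutation p = 0.00622, adjusted p = 0.148). Srebf1-201 kept a mean share between 22.1% and 25.2% in all 4 groups.

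The known targets of these factors were counted from lists of textbook targets. Of 13 tested ChREBP targets 9 fell in obese against lean mice under IgG2a and 8 under anti-PD-1, and none rose, with medians of -3.61 and -3.21 on the log2 scale. Of 14 SREBP-1c targets 10 and 11 fell, with medians of -3.78 and -2.87. These lists share 6 genes, so they are not separate evidence. The medians over all genes were 0.12 and 0.08, and 3.12% of all genes fell under IgG2a and 4.85% under anti-PD-1.

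Acly, which makes cytosolic acetyl-CoA from citrate, averaged 169 ± 65.4 CPM in obese anti-PD-1 and 147 ± 32.5 CPM in obese IgG2a mice, against 3960 ± 1554 in lean anti-PD-1 and 3858 ± 1221 CPM in lean IgG2a mice. Slc2a5, a fructose transporter, averaged 0.145 ± 0.191 CPM in obese anti-PD-1 and 0.180 ± 0.112 CPM in obese IgG2a mice, against 98.5 ± 38.3 in lean anti-PD-1 and 92.3 ± 24.6 CPM in lean IgG2a mice. Tkt, a pentose phosphate enzyme, changed by -3.63 ± 0.30 under anti-PD-1 and -3.61 ± 0.36 under IgG2a. Acacb, the mitochondrial acetyl-CoA carboxylase, changed by -3.78 ± 0.30 and -4.04 ± 0.37 in the same order. Elovl6, a fatty acid elongase, changed by -6.49 ± 0.60 under anti-PD-1, and Acss2, which makes acetyl-CoA from acetate, changed by -4.97 ± 0.50 under IgG2a. Acly changed by -4.55 ± 0.32 and -4.72 ± 0.39 in that order too. Apart from Slc2a5, the adjusted p of these genes was at most 3.14e-06 in each change given here, from edgeR. Slc2a5 was near the floor in obese mice and high only in lean ones. Its calls, which are counted among the ChREBP targets above, are no support of their own.

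Of 22 SREBP-2 targets, the enzymes of cholesterol synthesis and its uptake, 8 fell and 1 rose under IgG2a, and 11 fell under anti-PD-1. Over all genes 3.12% fell and 2.68% rose under IgG2a, and 4.85% fell under anti-PD-1. The list medians were -0.80 under IgG2a and -1.10 under anti-PD-1 on the log2 scale. Srebf2 itself passed in neither comparison. Acat2 fell by 2.34 under IgG2a and by 2.36 under anti-PD-1 on the log2 scale, Pmvk fell by 2.26 and 2.37, Fdft1 fell by 1.48 under IgG2a and Mvd fell by 2.08 under anti-PD-1.

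The LXR targets gave other calls. Under anti-PD-1 3 of 10 rose in obese mice, the cholesterol exporters Abcg1 (1.34 ± 0.30) and Abca1 (1.19 ± 0.28) and the phospholipid transfer protein Pltp (1.14 ± 0.34), with edgeR adjusted p of 0.00734, 0.00922 and 0.035. Over all genes 5.2% rose there. Under IgG2a 1 of 10 fell, Lpcat3, a phospholipid acyltransferase (-1.13 ± 0.29, adjusted p = 0.0226), beside 5.79% of all genes called in either direction. A single member of 10 is no result about the list. The list medians were 0.65 under anti-PD-1 and 0.09 under IgG2a. Macrophages also express Abca1 and Abcg1, and macrophage markers summed to 344 to 1410 CPM in obese anti-PD-1, against 347 to 976 CPM in lean anti-PD-1 libraries. Their part in the result was not tested.

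Calls among the partners of the factors went in both directions under anti-PD-1. Mid1ip1, the relative of Thrsp that binds acetyl-CoA carboxylase, fell by 1.58 under anti-PD-1 and by 2.12 under IgG2a (edgeR adjusted p = 7.36e-05 and 2.39e-05). Mlx, the obligate partner of ChREBP, fell by 0.83 in both comparisons (0.00694 and 0.0223). Ppargc1b, an SREBP coactivator, fell by 1.28 under IgG2a (0.0478), while the coregulators Ncoa2 and Ncor1 rose by 0.81 and 0.99 under anti-PD-1. That made 2 up and 2 down of 12 tested under anti-PD-1, beside 10.1% of all genes, and 3 down of 12 under IgG2a, beside 5.79%. An unadjusted p under 0.05 was found for 9 and 5 of the 12. None of the 11 genes of SREBP cutting and turnover, among them the proteases Mbtps1 and Mbtps2, was called by edgeR, and 1 had an unadjusted p under 0.05 under anti-PD-1 and 3 under IgG2a. Of 5 tested relatives of Pnpla3, 1 was called, Pnpla5 under IgG2a. It was at 0 in all 5 obese IgG2a libraries and averaged 0.727 ± 0.465 CPM in lean IgG2a ones, a low level, so no test of it is given.

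**Figure D5:**
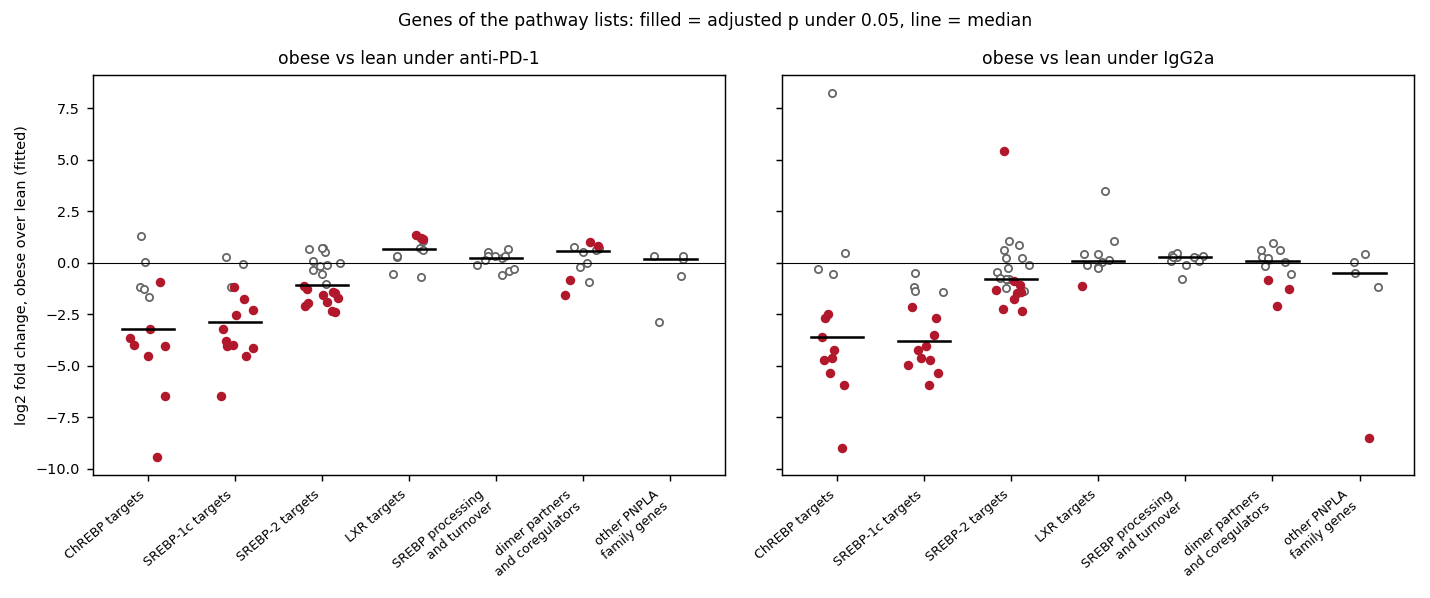
Fitted log2 fold change of obese over lean mice for each gene of the pathway lists, under anti-PD-1 (left) and IgG2a (right), filled where the adjusted p was under 0.05, with a line at each list's median. ChREBP and SREBP-1c targets have medians between -3.78 and -2.87 in both panels, and the SREBP processing genes have no filled point. The point of Pnpla5 under IgG2a depends on the prior count, as all its obese libraries are at 0.

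The profile of each member over the 23 libraries was set beside those of 11787 genes with at least 4 CPM on average. Likeness was the root mean square difference of centred log2 CPM, given as a description over libraries that share groups and markers. Thrsp lay nearest to the lipogenic enzymes Acss2 (0.70), Acly (0.74) and Slc25a1, the citrate carrier (0.75). Insig1 and Pnpla3 both had Pcx, pyruvate carboxylase, as nearest gene (0.43 and 0.50), followed for Pnpla3 by Slc2a4, the insulin-responsive glucose transporter (0.53), and for Insig1 by Echdc1 (0.45) and Gpd1 (0.46). Mlxipl lay nearest to Ybx2, Atp1b2 and Ucp3 (0.42, 0.43 and 0.49), and Srebf1 to Ddhd2, Pdhx and Gde1 (0.26, 0.28 and 0.28). Among the members themselves the nearest pair was Scap and Nr1h2 (0.33), and the nearest pair of genes that fell was Mlxipl and Pnpla3 (0.67). Nearest to Srebf2, Insig2, Scap, Nr1h3 and Nr1h2 were Sf3b3, Yes1, Ehmt2, Txndc15 and Paf1, in that order.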

How the data were processed

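RNA of tumor-adjacent mammary fat pads was sequenced from 23 libraries. Per the labels' protocols, RNA with an integrity number above 5 was used and the libraries do not keep strand. The deposited files hold estimated counts and TPM (scaled for length and depth) per transcript. No source used here names the program that made them; the submitters' processing notes name edgeR, limma and GRCm38 without versions. Of 115088 listed transcripts, 114200 matched GENCODE M21 identifiers. The other 888 held at most 0.208% of a library's counts and were left out.

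The deposited estimated counts were summed per gene, rounded to whole numbers and tested with edgeR 4.0.16 in R 4.3.3: filterByExpr with a minimum count of 10, TMM scaling, 1 mean per group over all libraries, robust quasi-likelihood tests and Benjamini-Hochberg adjustment over all 19882 genes. The deposited TPM values served to compare levels between genes and transcripts, for shares and for alternative fits. CPM values are counts scaled to TMM-scaled library sizes, with no log. Transcript shares were compared with exact two-sided permutation tests (scipy 1.17.1). The tests across genes and transcripts were first tested on simulated data. Alternatives used DESeq2 1.42.0, limma 3.58.1 (voom, and log2 of TPM plus 1 or 0.1), other filters, length offsets, marker scores and each library left out.

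The members and the gene lists were chosen with earlier results of these data known. Pathway genes are named as the 3 smallest adjusted p among those called in each list and obesity comparison; Ncor1 was named after its value was seen, and the values of 1 listed gene are not reported here. The 3 genes nearest in profile are named for each member.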

Additional observations from a re-analysis of the deposited data

Results flagged for a closer look

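In the 64 groups of 5 or 8 libraries that were checked for a library standing apart, 2 did so, and chance flags about 1 in 20 groups. Groups with every value at 0, such as Mlxipl-210 in obese mice, could not be flagged. Insig1 was 439 CPM in lean IgG2a library 4, below the other lean IgG2a libraries at 726 to 791 CPM, and the gap was 0.816 of the range of the group. Transcript Srebf1-207 was 32.2 TPM in lean anti-PD-1 library 2, above the other lean anti-PD-1 libraries at 1.93 to 10.4 TPM, and the gap was 0.72 of the range.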

How the results depend on the processing

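No paired analysis was possible because the labels give no replicate numbers, so libraries were numbered in accession order only. Each gene result was recomputed under 14 other settings (13 for the interaction) and without each library of the groups it compares. Of single genes, 678 values with a library left out and 653 under other settings kept their side of the threshold, 31 became called and 16 lost their call. Among all single values, transcripts and shares included, 114 changed sign while called in neither setting, and these are counted as kept. Nr1h2 under anti-PD-1 turned to 0.59 on log2(TPM + 1) and 0.60 on log2(TPM + 0.1). The cause was not tested.

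Under anti-PD-1 the number of members called in obese against lean mice was 2, and it was 4 with DESeq2 size factors, 4 with the DESeq2 test, 5 with voom, 5 with the B cell score and 5 with the fat cell score as covariate, 5 in libraries with a B cell score above 4, and 1 with the epithelium score. Calls over all genes rose from 1999 in the main fit to 2103 with DESeq2 size factors, 3122 with the DESeq2 test and 6369 with voom. The counts of members in different settings are therefore not a result about the members alone. Leaving out 1 library gave 2 to 4 members. Under IgG2a the number of members called was 5, and it was 3 with the epithelium score. The set with a B cell score of at most 4 holds only 1 lean IgG2a library, so no count is given for it. Leaving out 1 library gave 4 to 5. For anti-PD-1 against IgG2a in obese mice it was 0, with 3 by voom and 1 in libraries with a B cell score of at most 4. The interaction gave 0, with 1 by voom. Of the transcripts of Mlxipl and Srebf1, with Mlxipl-210 counted, leaving out 1 library gave 2 to 4 calls under IgG2a and 2 to 3 under anti-PD-1. No share test passed under any setting run, but with so few libraries a single share could not have passed on its own.

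Over all genes the calls numbered 1152 under IgG2a, between 255 (B cell score of at most 4) and 4877 (voom) in other fits and 495 to 1662 with a library left out. They numbered 1999 under anti-PD-1, between 380 (epithelium score) and 6369 (voom), and 1108 to 2432 with a library left out. For anti-PD-1 against IgG2a in obese mice 107 genes were called, between 0 and 2694 (voom), and 0 to 643 with a library left out. In lean mice 0 genes were called by edgeR, 22 by the DESeq2 test and 1 by voom, and the interaction gave 0, 50 and 629. Low estimated counts limit the single transcripts, since a value of 0 allows up to 3 counts, and intervals and floors cover counting error only.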
